A study of Homo sapiens with 9 samples.

Results

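A platinum drug has to cross the plasma membrane, is passed along the proteins that normally carry copper, and can be pumped out again or bound by glutathione. Described here are 10 genes of that path: the copper transporters SLC31A1 and SLC31A2, the copper chaperone ATOX1, the copper ATPases ATP7A and ATP7B, the exporters ABCC1, ABCC2, ABCC3 and ABCB1, and the glutathione transferase GSTP1. They were chosen by gene name, each had 1 row among the 32378 genes of the table, and 8 of the 10 had enough counts to be tested. The RNA came from SKOV3, a widely used line of human ovarian cancer cells, in 9 libraries with 3 in each of 3 groups. The groups were Carbo+COM33, Carbo, read from the series title as carboplatin, and control; every group was the same line, grown in RPMI medium with serum. COM33 is known only by that code. Doses and times of treatment are not given in the sources used here, and no group received COM33 alone. The study asked how COM33 raises the sensitivity of the cells to carboplatin. Nothing states whether the replicates were separate cultures, so the p-values measure only the spread between these libraries, which may be technical. Nor is it stated whether the 3 groups were prepared together.

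Copper enters human cells mainly through SLC31A1 (CTR1), a trimeric channel of the plasma membrane that has been linked to the entry of cisplatin and carboplatin. ATOX1 carries copper to ATP7A and ATP7B, which pump it into the secretory path or out of the cell and can bind platinum drugs too. The ABCC proteins are ATP-driven exporters of organic anions, glutathione conjugates among them, and GSTP1 joins glutathione to reactive compounds. High ATP7B, ABCC2 or GSTP1 has been studied in ovarian cancer as a marker of platinum resistance, and low SLC31A1 likewise.

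The libraries held 13851760 to 15533668 counts each. Of the 9 genes listed as markers of the line, 7 were clearly detected, ERBB2 at 141 to 245 FPKM (fragments per kilobase of exon, scaled to the library total) and PAX8 at 38.0 to 70.4 FPKM, while MUC16 reached at most 0.0646 FPKM and WT1 at most 0.562 FPKM. Summed over the 9 marker genes, the level was 442 to 506 FPKM in Carbo+COM33, 566 to 624 FPKM in Carbo and 594 to 644 FPKM in control. Carbo and control overlapped, and the sum was lower in Carbo+COM33. ERBB2 and KRT19 (123 to 164 FPKM) were its largest parts. The part of this lower sum in the results below was not tested. Marker lists of blood cells, endothelium, liver and kidney each summed to at most 0.646 FPKM in any library. Bulk RNA cannot tell fewer cells of a type from less RNA per cell.

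Of the 10 genes, SLC31A1 was the only one called higher with COM33 added to Carbo (edgeR adjusted p under 0.05, which 2.43% of all genes tested reached in that direction), and its promoter is shown for that reason. SLC31A1 lies on the plus strand of chromosome 9, from 113221562 to 113264492 (GRCh38, GENCODE 29). The 250 bases before its RefSeq start, chr9:113221294-113221543 on the plus strand (RefSeq, GRCh38.p14), read 5′ to 3′ with GC boxes (GGGCGG) in capitals:
SLC31A1: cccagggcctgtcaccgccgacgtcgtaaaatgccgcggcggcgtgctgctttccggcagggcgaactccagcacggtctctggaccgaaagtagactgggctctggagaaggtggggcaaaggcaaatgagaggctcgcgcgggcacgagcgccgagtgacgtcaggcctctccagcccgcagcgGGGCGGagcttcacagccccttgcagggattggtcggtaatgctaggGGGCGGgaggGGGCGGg
The window had a GC content of 68% and held 3 GC boxes, starting 64, 17 and 7 bases before the start. GC boxes are the letters bound by the factor SP1, for which a role in the control of SLC31A1 by copper has been described. On either strand, 42.6% of 35116 RefSeq promoter windows hold a GC box. Of the other members, ATP7B held 3 in some of its windows, GSTP1 held 2 and ATOX1 held 1. The windows of ATP7A, ABCC2 and ABCB1 held none. Just upstream of the 3 GC boxes of SLC31A1 lie 2 overlapping matches to TGACG, 1 per strand, which together read TGACGTCA. At least 1 match to TGACG is held by 21.2% of the windows, and the share with an overlapping pair was not counted. These are matches of letters and not sites shown to be bound. ABCC1, ABCC3 and SLC31A2 had no entry in the promoter table.

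Per length of exon, the 10 genes covered a wide range of levels, with GSTP1 at the top and ABCB1 at the bottom in each group. GSTP1 (chromosome 11, 67583595 to 67586656, plus strand) averaged 166 ± 3.21 FPKM in Carbo+COM33, 170 ± 16.5 FPKM in Carbo and 174 ± 7.23 FPKM in control (SD, n = 3 each). ABCC3 (chromosome 17, 50634777 to 50692252, plus) came next with 27.4 ± 1.99 FPKM in Carbo+COM33, 35.9 ± 3.39 FPKM in Carbo and 42.2 ± 5.01 FPKM in control. ABCC1 (chromosome 16, 15949577 to 16143074, plus) followed with 27.2 ± 0.252 FPKM in Carbo+COM33, 32.6 ± 0.391 FPKM in Carbo and 32.8 ± 1.35 FPKM in control. Every control library had more ABCC3 than ABCC1, whereas the ranges of these genes overlapped in Carbo+COM33, where ABCC3 ran from 25.1 to 28.6 FPKM and ABCC1 from 27.0 to 27.5 FPKM. SLC31A1 came below them, at 18.2 ± 0.910 FPKM in Carbo+COM33, 14.01 ± 1.35 FPKM in Carbo and 14.7 ± 1.35 FPKM in control.

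The copper chaperone and pumps were lower. ATOX1 (chromosome 5, 151742316 to 151772532, minus) ranged from 2.86 to 4.05 FPKM over the 9 libraries, ATP7B (chromosome 13, 51930436 to 52012125, minus) from 2.30 to 3.21 FPKM and ATP7A (chromosome X, 77910656 to 78050395, plus) from 1.52 to 2.15 FPKM. Within each group these 3 ranges did not overlap. The place of ATOX1 depended on the length used: its annotated exons span 5239 bases together but its principal transcript only 749 bases, and with principal transcripts ATOX1 stood above SLC31A1, at 25.4 against 15.9 FPKM in control. ABCC2 (chromosome 10, 99782640 to 99852594, plus), a pump of the apical membrane of liver and kidney cells, stayed between 0.403 and 0.631 FPKM. SLC31A2 and ABCB1 were at the edge of detection.

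**Figure D1:**
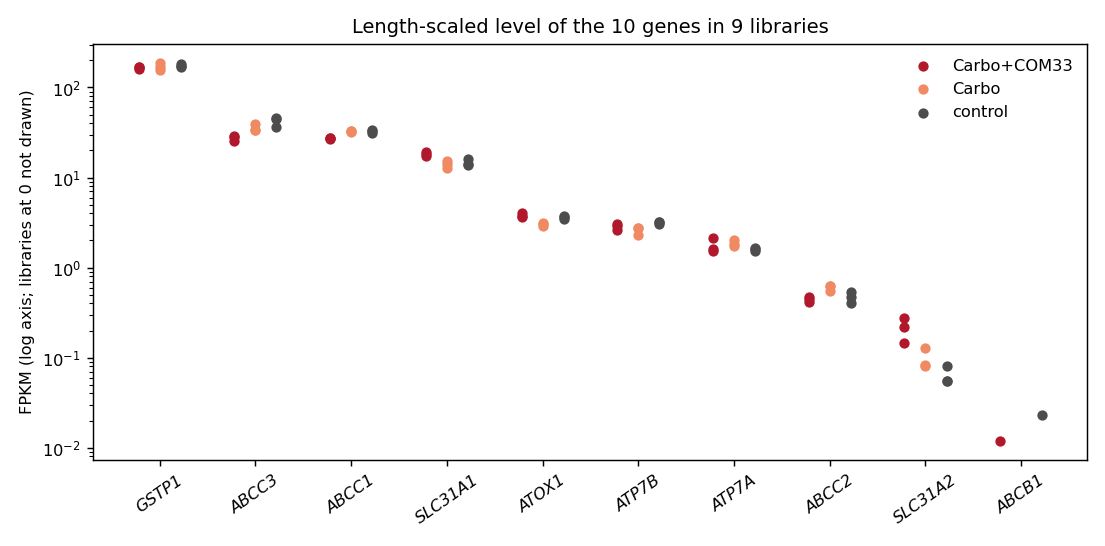
FPKM (log axis) of the 10 genes in each of the 9 libraries, coloured by group, with genes ordered by their mean in control. GSTP1 lies at 155 to 187 FPKM, ABCC3 at 25.1 to 45.7, ABCC1 at 27.0 to 33.9, and SLC31A2 at or below 0.2754. Libraries with no ABCB1 count are not drawn.

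SLC31A1, the plasma membrane entry route, had the lowest adjusted p of the 8 tested genes between Carbo+COM33 and Carbo. It measured 99.7, 94.4 and 89.4 CPM (counts scaled to the library size, with TMM factors) in Carbo+COM33 1 to 3, 78.1, 71.5 and 64.8 CPM in Carbo 1 to 3, and 83.7, 71.1 and 70.5 CPM in control 1 to 3. The lowest Carbo+COM33 library was above the highest library of each other group, and the Carbo and control libraries overlapped. Against Carbo, SLC31A1 rose by 32.1% in Carbo+COM33 (log2 fold change 0.40 ± 0.097 (SE), 95% interval 0.19 to 0.61, edgeR adjusted p = 0.0341). The call was lost, with edgeR adjusted p-values of 0.0565 to 0.146, when any of Carbo 2, Carbo 3, Carbo+COM33 1, Carbo+COM33 2 or control 2 was left out, while the log2 fold change stayed between 0.34 and 0.47. Against control, SLC31A1 was 25.7% higher in Carbo+COM33 with the same separation of libraries, but missed the threshold (log2 fold change 0.33, edgeR adjusted p = 0.0609), which it passed with DESeq2 (DESeq2 adjusted p = 0.0297). With a trend on GC content and gene length removed from each library, the difference from control was smaller (log2 fold change 0.28, edgeR adjusted p = 0.116). The one from Carbo kept its call there (log2 fold change 0.43, edgeR adjusted p = 0.0229). The only named pseudogene of SLC31A1 had 2 counts in all, against 10516. Between Carbo and control no difference was detected (log2 fold change -0.07, 95% interval -0.28 to 0.14, edgeR adjusted p = 0.729).

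SLC31A2 (CTR2, chromosome 9, 113150942 to 113164137, plus), an intracellular relative of SLC31A1, was nearly silent. It had 5, 10 and 8 counts in Carbo+COM33 1 to 3, 3, 5 and 3 counts in Carbo 1 to 3, and 2, 3 and 2 counts in control 1 to 3. The sums were 23, 11 and 7 counts for Carbo+COM33, Carbo and control. The counts were highest in Carbo+COM33, where library 1 had as many as Carbo 2. They fell under the filter on low counts. Tested without the filter, Carbo+COM33 was above control by 1.72 on the log2 scale, which missed the threshold (edgeR adjusted p = 0.237). The gene shares 63.1% of its exon bases with FKBP15 on the opposite strand, which had 9171 counts in all 9 libraries against 41 for SLC31A2; no source says whether reads were counted by strand, so reads of the pair cannot be told apart.

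ATOX1, the chaperone that hands copper to the ATP7 pumps, was lowest in Carbo. It measured 21.6, 19.5 and 19.9 CPM in Carbo+COM33 1 to 3, 14.9, 16.3 and 16.2 CPM in Carbo 1 to 3, and 19.9, 19.0 and 17.9 CPM in control 1 to 3. Every Carbo library was below every library of each other group, and Carbo+COM33 and control overlapped. ATOX1 was 1.29 times as high in Carbo+COM33 as in Carbo, short of the threshold (log2 fold change 0.36 ± 0.11 (SE), edgeR adjusted p = 0.0685), and stood at 0.834 of the control level in Carbo (log2 fold change -0.26 ± 0.11 (SE), edgeR adjusted p = 0.266). With a trend on GC content and gene length removed from each library, the difference between Carbo+COM33 and Carbo passed (log2 fold change 0.40, edgeR adjusted p = 0.0318). In the paired fit of Carbo and control, ATOX1 missed the threshold (log2 fold change -0.26, edgeR adjusted p = 0.0648), and it passed there with the trend also removed (log2 fold change -0.33, edgeR adjusted p = 0.0367). ATOX1 shares 130 exon bases with G3BP1 on the opposite strand, a gene with 35117 counts against 2405.

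Neither copper pump passed the test in the fit of all 9 libraries. ATP7A, the pump of most tissues outside the liver, measured 17.9, 23.7 and 16.8 CPM in Carbo+COM33 1 to 3, 19.0, 21.9 and 20.2 CPM in Carbo 1 to 3, and 16.6, 17.9 and 17.7 CPM in control 1 to 3. Carbo+COM33 2 stood above every other library, and its group overlapped each other group. All 3 Carbo libraries were above all 3 control libraries. No ATP7A difference passed the test, the nearest being Carbo above control by 0.23 on the log2 scale (95% interval -0.07 to 0.52, edgeR adjusted p = 0.402). In the paired fit of Carbo and control the difference was 0.22 (95% interval 0.03 to 0.42, edgeR adjusted p = 0.0941). With the GC and length trend removed from the fit of all 9 libraries it was 0.07 (edgeR adjusted p = 0.876). ATP7A shares 97 exon bases with PGK1, a gene of the same strand with 43228 counts against 2508.

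ATP7B, the copper pump mutated in Wilson disease, measured 25.6, 29.8 and 27.98 CPM in Carbo+COM33 1 to 3, 26.3, 26.5 and 22.3 CPM in Carbo 1 to 3, and 29.3, 30.8 and 30.5 CPM in control 1 to 3. All 3 Carbo libraries were below all 3 control libraries, and Carbo+COM33 lay between and overlapped both. In the fit without pairs, Carbo stood at 0.831 of the control level, short of the threshold (log2 fold change -0.27 ± 0.10 (SE), edgeR adjusted p = 0.259). Carbo and control libraries of the same number deviated together (r = 0.565 to 0.824 across 6607 genes), and in the fit with the replicate number as a block ATP7B fell by 0.27 on the log2 scale (SE 0.085, edgeR adjusted p = 0.0293). This call was lost without pair 2 or pair 3 (edgeR adjusted p up to 0.225), and with the GC and length trend removed (log2 fold change -0.21, edgeR adjusted p = 0.12). Carbo+COM33 did not separate from Carbo (log2 fold change 0.15, edgeR adjusted p = 0.431) or from control (log2 fold change -0.12, edgeR adjusted p = 0.52).

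**Figure D2:**
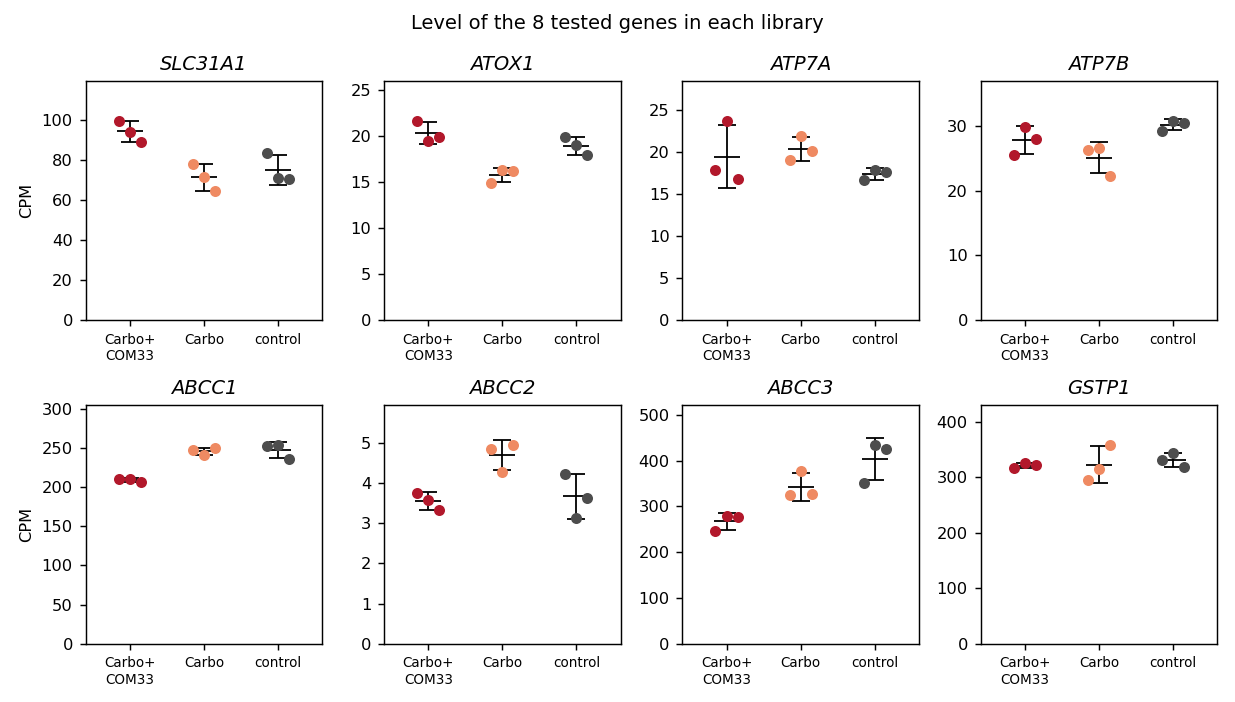
CPM of the 8 tested genes in each library (points), with the mean and SD of each group of 3 (bars). SLC31A1 in Carbo+COM33 lies at 89.4 to 99.7 CPM, above all other libraries, and ABCC3 at 247 to 279 CPM, below all others.

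Among the exporters, ABCC3 (MRP3), which carries glucuronide and glutathione conjugates and bile acids, was lowest with COM33. It measured 247, 279 and 277 CPM in Carbo+COM33 1 to 3, 324, 378 and 327 CPM in Carbo 1 to 3, and 352, 435 and 425 CPM in control 1 to 3. Carbo+COM33 lay wholly below the other groups, while the highest Carbo library was above the lowest control library. Against control, ABCC3 fell by 33.8% in Carbo+COM33 (log2 fold change -0.60 ± 0.10 (SE), 95% interval -0.81 to -0.38, edgeR adjusted p = 0.00663). Leaving out control 2 or Carbo+COM33 1 moved the edgeR adjusted p to 0.0568 or 0.0522, with log2 fold changes between -0.68 and -0.54 over the 9 libraries left out. Against Carbo the gene stood at 0.780 of the Carbo level in Carbo+COM33, short of the threshold (log2 fold change -0.36 ± 0.10 (SE), edgeR adjusted p = 0.0587). It passed with the GC and length trend removed (log2 fold change -0.37, edgeR adjusted p = 0.0338) and with DESeq2 (DESeq2 adjusted p = 0.0228). Carbo against control gave a log2 fold change of -0.24 with edgeR adjusted p = 0.273 without pairs. In the paired fit ABCC3 fell in Carbo by 0.24 on the log2 scale (SE 0.051, edgeR adjusted p = 0.00324), and each pair left out kept the call (edgeR adjusted p of at most 0.0371). The paired call was lost with the GC and length trend removed (log2 fold change -0.12, edgeR adjusted p = 0.124), whereas the one between Carbo+COM33 and control held (log2 fold change -0.49, edgeR adjusted p = 0.0115).

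ABCC1 (MRP1), an exporter of glutathione conjugates found in most tissues, was lower in Carbo+COM33 by a small margin. It measured 210, 211 and 207 CPM in Carbo+COM33 1 to 3, 247, 241 and 250 CPM in Carbo 1 to 3, and 252, 254 and 235 CPM in control 1 to 3. All Carbo+COM33 libraries were below all others, and the Carbo libraries lay within the range of the control libraries. In Carbo+COM33 it stood at 0.850 of the Carbo level (log2 fold change -0.23 ± 0.070 (SE), edgeR adjusted p = 0.071) and at 0.845 of the control level (log2 fold change -0.24 ± 0.070 (SE), edgeR adjusted p = 0.0574), and missed the threshold in each. DESeq2 placed the same differences past it (DESeq2 adjusted p = 0.0329 and 0.0252), and with the GC and length trend removed the one against Carbo passed too (edgeR adjusted p = 0.0406). The one against control shrank with that trend removed and missed the threshold (log2 fold change -0.15, edgeR adjusted p = 0.196). Between Carbo and control the ABCC1 log2 fold change was -0.01 (95% interval -0.16 to 0.14, edgeR adjusted p = 0.967), a sign that turned with the GC and length trend removed (0.10).

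ABCC2 (MRP2), the canalicular exporter, rested on 47 to 72 counts a library. It measured 3.76, 3.56 and 3.32 CPM in Carbo+COM33 1 to 3, 4.84, 4.26 and 4.95 CPM in Carbo 1 to 3, and 4.23, 3.13 and 3.63 CPM in control 1 to 3. Every Carbo library was above all others, but Carbo 2 (4.26 CPM) stood above control 1 (4.23 CPM) by less than 1 count. The log2 fold change was -0.40 between Carbo+COM33 and Carbo (95% interval -0.80 to 0.0030, edgeR adjusted p = 0.226) and 0.36 between Carbo and control (95% interval -0.05 to 0.76, edgeR adjusted p = 0.345), so neither passed at this depth. Both comparisons share the Carbo libraries.

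ABCB1 (P-glycoprotein or MDR1, chromosome 7, 87503633 to 87713323, minus), the exporter of taxanes and anthracyclines, was at the limit of detection. It had 1 count in Carbo+COM33, in library 3, none in Carbo, and 2 counts in control, in library 2. A count of 0 allows up to 3 counts, or 0.191 to 0.209 CPM in a Carbo library, and covers counting error only. The gene was not tested.

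GSTP1, the highest of the 10 genes in FPKM, showed no difference past the threshold in the fit of all 9 libraries. It measured 316, 325 and 322 CPM in Carbo+COM33 1 to 3, 295, 315 and 359 CPM in Carbo 1 to 3, and 332, 344 and 318 CPM in control 1 to 3. The groups overlapped throughout, and Carbo held both the lowest and the highest library. The log2 fold change was -0.01 between Carbo+COM33 and Carbo (95% interval -0.19 to 0.17, edgeR adjusted p = 0.969), -0.05 between Carbo+COM33 and control (95% interval -0.23 to 0.13, edgeR adjusted p = 0.786) and -0.04 between Carbo and control (95% interval -0.22 to 0.14, edgeR adjusted p = 0.845). The longest GSTP1 transcript has a GC content of 62.5%. Removing the GC and length trend turned the sign of Carbo against control, to 0.22 (edgeR adjusted p = 0.529). In the paired fit it turned to 0.21, there past the threshold (edgeR adjusted p = 0.0205). No direction is therefore given for GSTP1.

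Counted over the 8 tested genes, few members passed. With COM33 added to Carbo, 1 of 8 was called, SLC31A1 upward, beside 4.96% of the 16450 genes tested in either direction and 2.43% upward. For Carbo+COM33 against control, 1 of 8 was called, ABCC3 downward, beside 6.29% of all genes in either direction and 3.09% downward. In each case 1 of 8 is 12.5%, a share set by a single gene. For Carbo against control, edgeR called 0 of 8 and 0% of all genes, with 3 members and 2748 genes at an unadjusted p under 0.05 and 133 genes called by DESeq2, none of them a member. In the paired fit of Carbo and control, 2 of 8 were called downward, ATP7B and ABCC3, beside 22.7% of all genes in either direction and 11.5% downward.

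Separation of the libraries was more frequent. Carbo+COM33 and Carbo did not overlap for 5 of the 8 tested genes, SLC31A1 and ATOX1 being higher and ABCC1, ABCC2 and ABCC3 lower, beside 23.7% of all genes, 11.7% higher and 11.9% lower. Carbo+COM33 and control did not overlap for 3 of 8, beside 28.7% of all genes, and Carbo and control for 4 of 8, beside 22.5%. The median log2 fold change of the 8 genes was -0.04 between Carbo+COM33 and Carbo, -0.05 between Carbo+COM33 and control and -0.05 between Carbo and control, against medians of -0.0064, -0.01 and 0.00094 over all genes tested.

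**Figure D3:**
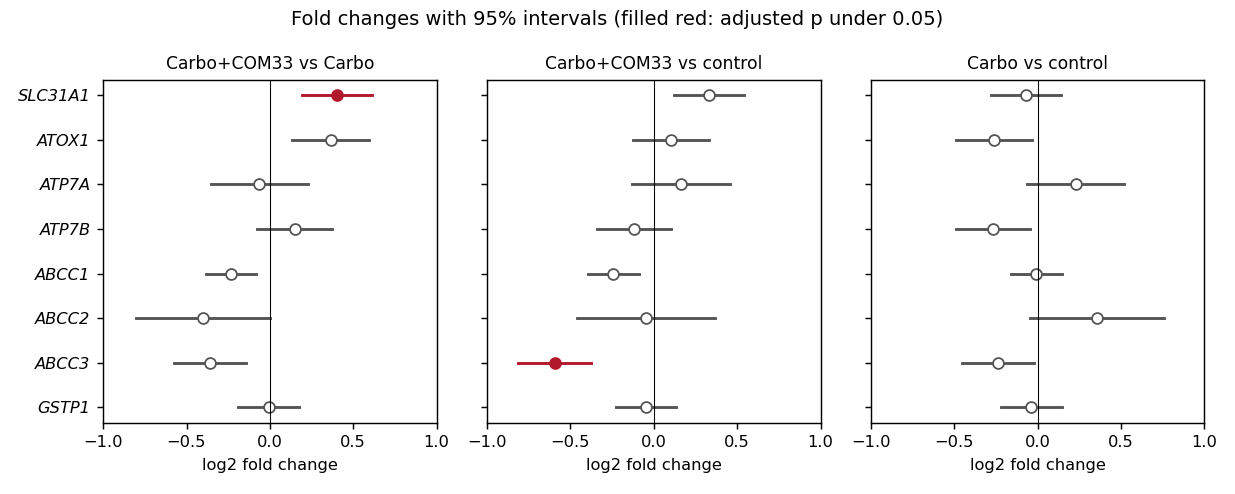
Log2 fold changes of the 8 tested genes with 95% intervals in the 3 comparisons from the fit of all 9 libraries; filled red marks edgeR adjusted p under 0.05. SLC31A1 is filled at 0.40 for Carbo+COM33 against Carbo, ABCC3 at -0.60 for Carbo+COM33 against control, and none is filled for Carbo against control.

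**Figure D4:**
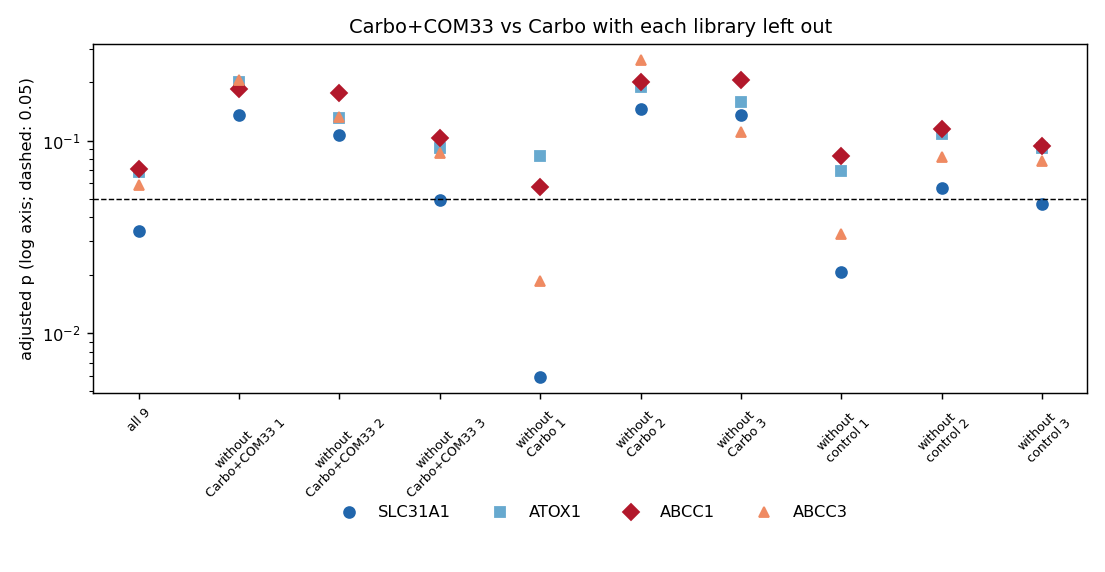
The edgeR adjusted p (log axis) of SLC31A1, ATOX1, ABCC1 and ABCC3 between Carbo+COM33 and Carbo, in all 9 libraries and with each library left out; the dashed line is 0.05. SLC31A1 runs from 0.00592 to 0.146 and crosses the line in 5 of the 9 cases, ABCC3 runs from 0.0186 to 0.262, and ATOX1 and ABCC1 stay above the line.

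The genes whose levels followed SLC31A1 most closely over the 9 libraries were DCBLD2, HSDL1 and GPR27, with root-mean-square differences of 0.0445, 0.0464 and 0.048 in log2 CPM after centring each gene on its own mean, where SLC31A1 itself varied by 0.202. DCBLD2 averaged 810 CPM in Carbo+COM33, 645 CPM in Carbo and 650 CPM in control. Closest to ABCC3, which varied by 0.266, were MZF1, SEC31B and PORCN, at 0.0499, 0.0623 and 0.0671. MZF1 averaged 20.6 CPM in Carbo+COM33, 25.0 CPM in Carbo and 30.6 CPM in control. These 6 genes were selected for likeness among 16449 genes, and the values are a description.

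Around the 10 genes, 4 lists covered other copper handling, other routes of platinum drugs through membranes, other drug exporters with related genes, and glutathione metabolism. They held 88 genes, of which 81 were in the table and 67 could be tested. Against Carbo, 5 of the 67 rose in Carbo+COM33 and none fell (7.46%, beside 4.96% of all genes, 2.43% up and 2.53% down). Among them were 1 of 19 copper genes, 1 of 7 genes of the exporter list and 2 of 29 glutathione genes. The gene of the exporter list was MVP, the major vault protein, which is not itself an ABC exporter. The median log2 fold change of the 67 was 0.04 against -0.0064 over all genes. Against control, 2 rose and 1 fell (4.48%, beside 6.29% of all genes, 3.2% up and 3.09% down). Between Carbo and control none of the 67 was called by edgeR without pairs or by DESeq2.

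GSTO1, an omega-class transferase with thiol transferase activity, rose with COM33 against both other groups. It ranged from 73.8 to 88.0 CPM in Carbo+COM33, from 46.9 to 54.6 CPM in Carbo and from 51.7 to 63.4 CPM in control. Carbo+COM33 lay wholly above the other groups, by 0.69 on the log2 scale against Carbo (edgeR adjusted p = 0.0044) and by 0.53 against control (edgeR adjusted p = 0.0139). Against Carbo the call held with every library left out (edgeR adjusted p of at most 0.0408), and against control it was lost without control 2, control 3 or Carbo+COM33 1 (edgeR adjusted p up to 0.0863). GLRX, a glutaredoxin that takes glutathione off protein thiols, averaged 15.5 ± 1.11 CPM in Carbo+COM33, 9.25 ± 1.49 CPM in Carbo and 10.2 ± 2.16 CPM in control, a rise of 0.74 on the log2 scale against Carbo (edgeR adjusted p = 0.0288). The GLRX difference from control missed the threshold (log2 fold change 0.60, edgeR adjusted p = 0.0562). TXN, thioredoxin, averaged 222 ± 24.6 CPM in Carbo+COM33, 173 ± 13.0 CPM in Carbo and 167 ± 21.7 CPM in control, and rose against control (log2 fold change 0.41, edgeR adjusted p = 0.0425). The TXN difference from Carbo missed the threshold (log2 fold change 0.36, edgeR adjusted p = 0.0736). No TXN pseudogene had more than 6 counts in all, against 24442 for TXN.

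STEAP3, a metalloreductase of endosomes, rose by 0.64 on the log2 scale against Carbo (edgeR adjusted p = 0.0365). It averaged 40.6 ± 1.01 CPM in Carbo+COM33, 26.1 ± 6.41 CPM in Carbo and 34.7 ± 5.43 CPM in control. Against control it missed the threshold (log2 fold change 0.23, edgeR adjusted p = 0.402). It shares 11.0% of its exon bases with an antisense gene. MVP, the major vault protein, rose by 0.59 against Carbo (edgeR adjusted p = 0.0308). It averaged 272 ± 28.9 CPM in Carbo+COM33, 180 ± 27.3 CPM in Carbo and 221 ± 42.6 CPM in control. Against control MVP missed the threshold too (log2 fold change 0.30, edgeR adjusted p = 0.207). SLC47A2, a proton-coupled exporter of organic cations, was the single pathway gene that fell against control (log2 fold change -1.37, edgeR adjusted p = 0.0357). It averaged 1.06 ± 0.259 CPM in Carbo+COM33, 1.58 ± 0.439 CPM in Carbo and 2.76 ± 0.890 CPM in control. These levels rest on 45, 71 and 122 counts per group, in that order. Its difference from Carbo missed the threshold (log2 fold change -0.57, edgeR adjusted p = 0.387). The call against control was lost with the GC and length trend removed (log2 fold change -1.24, edgeR adjusted p = 0.0578). Leaving out 1 library lost the calls of GLRX, MVP, TXN and SLC47A2 in 5 of 9 cases each and of STEAP3 in 6, with edgeR adjusted p-values of up to 0.213.

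**Figure D5:**
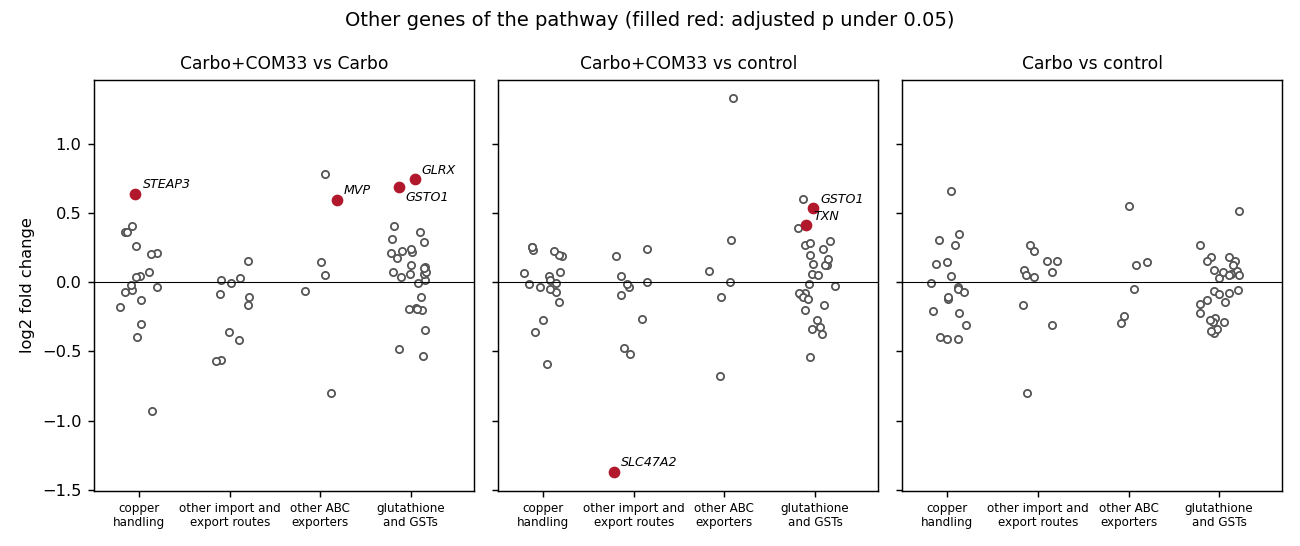
Log2 fold changes of 65 of the 67 tested pathway genes in the 4 lists and 3 comparisons, from the fit of all 9 libraries; filled red marks edgeR adjusted p under 0.05 and points are spread sideways for legibility only. The filled genes drawn are 4 for Carbo+COM33 against Carbo, all above 0, and 3 for Carbo+COM33 against control, with SLC47A2 at -1.37.

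In the paired fit of Carbo and control, 5 of the 67 pathway genes rose and 11 fell (23.9%, beside 22.7% of all genes, 11.2% up and 11.5% down). By list, 2 of 19 copper genes rose and 3 fell, 1 of 12 routes rose and 1 fell, 2 of 7 genes of the exporter list fell, and 1 of 29 glutathione genes rose and 5 fell. STEAP3 fell by 0.42, the copper chaperone for superoxide dismutase CCS by 0.40, and the phosphate and copper carrier of mitochondria SLC25A3, named outside the rule after its value was seen, by 0.21 on the log2 scale. STEAP2, a metalloreductase, rose by 0.30 and LOX, the copper enzyme lysyl oxidase, by 0.25. SLC47A2 fell by 0.80, and LRRC8D, a subunit of the volume-regulated anion channel through which platinum drugs can enter, rose by 0.26. MVP fell by 0.29 and the exporter ABCC10 by 0.25. Of the glutathione genes, GGT7, a gamma-glutamyl transferase relative, fell by 0.29, SLC3A2, the heavy chain of the cystine carrier, by 0.29 and GSTZ1 by 0.27, while the peroxidase GPX8 rose by 0.26. MVP, SLC3A2 and GPX8 kept the call with each pair left out (edgeR adjusted p of at most 0.0219). The other 10 genes named here lost it without at least 1 pair (edgeR adjusted p up to 0.255). With the GC and length trend removed, STEAP3, SLC25A3 and SLC3A2 kept the paired call (edgeR adjusted p of at most 0.0375), and the other 10 did not.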

How the data were processed

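Messenger RNA of SKOV3 cells was selected with poly-T beads and sequenced as paired-end reads, per the labels' protocols. The authors deposited read counts per gene in whole numbers and FPKM for 9 libraries; the submitters' processing notes name the build GRCh38 and, among tools, DESeq2 1.26.0, HISAT2 and HTSeq 0.11.2, and the settings are not given in the sources used here. The deposited FPKM equalled count over union-exon length and library total within 0.5 bases for 99.7% of 222633 nonzero values. All 32378 IDs matched GENCODE 29. The members and lists were chosen with earlier results of these data known. Genes to name in the lists were those called, up to 4 per list and comparison by absolute log2 fold change. Some of the called list genes count in the totals but are not reported here.

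Counts were fitted with edgeR 4.0.16 (quasi-likelihood, filterByExpr, TMM factors 0.982 to 1.01, all 9 libraries, 6 residual degrees of freedom, R 4.3.3), and p-values were adjusted by Benjamini-Hochberg over 16450 genes and called under 0.05. FPKM was used for levels between genes only. The trend on GC content and length was removed by splines of 5 degrees of freedom per library, on transcript sequences of GENCODE. The code was tested on simulated data for Carbo+COM33 against Carbo only, with the same dispersion for every gene. The paired fit of Carbo and control was not simulated. Pairing was read from the data, not the labels: deviations of same-numbered Carbo and control libraries correlated at 0.824, 0.565 and 0.748 over 6607 genes, so the paired fit (6 libraries, 2 residual degrees of freedom) is given for that comparison. Alternatives were other size factors, no filter, DESeq2 1.42.0, 2 groups only, replicate blocks, each library left out and, added after seeing the data, each pair left out of the paired fit and levels per principal transcript. At these totals, 1 count equals 0.0637 to 0.0736 CPM.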

Additional observations from a re-analysis of the deposited data

How the results depend on the processing

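The number of genes called moved with the setting. For Carbo+COM33 against Carbo, 816 genes, 1 member (SLC31A1) and 5 pathway genes were called by edgeR; without the filter these were 1876, 2 and 9, with DESeq2 1340, 3 and 9, with a replicate block over all 9 libraries 1554, 2 and 8, with the GC and length trend removed 1235 genes and 4 members, and with a replicate block in the 6 libraries 502 genes and 0 members (4 members had an unadjusted p under 0.05), or 2 members with the trend also removed. Leaving out 1 library gave 120 to 2721 genes, 0 to 2 members and 1 to 16 pathway genes. For Carbo+COM33 against control, 1035 genes, 1 member (ABCC3) and 3 pathway genes became 1934, 2 and 8 without the filter, 1563, 3 and 6 with DESeq2, 1625, 3 and 8 with the block over 9 libraries, 2 members and 6 pathway genes in the 2 groups only, 6 pathway genes with the trend removed, and 1700, 2 and 12 with trend and block; 1 library left out gave 114 to 2208, 0 to 3 and 0 to 10. Same-numbered Carbo+COM33 libraries did not deviate with Carbo (r = -0.388 to 0.138) or control (r = -0.42 to 0.101), so these blocks rest on a shared number alone. Whether the Carbo+COM33 libraries were prepared apart from the others is not stated, and its part in the differences of that group was not tested. Between Carbo and control, 0 genes became 928 without the filter, with 2 pathway genes, 133 with DESeq2, 3739 with the replicate block (2 members, ATP7B and ABCC3, and 16 pathway genes) and 1734 with trend and block (2 other members, ATOX1 and GSTP1, and 11 pathway genes). Leaving 1 library out of the unpaired fit gave 0 to 1034 genes and 0 to 2 pathway genes, and the paired fit without pair 1, 2 or 3 gave 4338, 1623 and 2842 genes, 2, 1 and 2 members, and 20, 6 and 14 pathway genes.

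Signs turned for SLC31A1, ATP7A, ABCC1, ABCC2 and GSTP1 where no difference had passed the threshold (log2 fold changes below). Between Carbo and control, SLC31A1 ran from -0.14 to 0.015 with a library left out. ABCC1 reached 0.097 with the trend removed and with trend and block, -0.041 to 0.013 with a library left out, and 0.0030 and 0.029 in the block without pair 1 or 2. GSTP1 reached 0.22 and 0.21 with the trend removed and with trend and block, -0.12 to 0.024 with a library left out, and 0.022 and 0.0029 in the block without pair 1 or 2. Comparing Carbo+COM33 with Carbo, ATP7A reached 0.0071 with the trend removed and -0.23 to 0.033 with a library left out, and GSTP1 reached 0.0028 without the filter, 0.0014 with the block, and -0.070 to 0.074 with a library left out. Comparing Carbo+COM33 with control, ATP7A ran from -0.0059 to 0.26 and ABCC2 from -0.15 to 0.077 with a library left out, and GSTP1 0.18 with the trend removed and 0.18 with trend and block. The causes were not tested. The TPM scale divides all FPKM of a library by the same total, so its unchanged order of the 10 genes is no check. Levels per principal transcript did change the order, with ATOX1 above SLC31A1 in every group. Depth limits SLC31A2 and ABCB1, with at most 10 counts a library, and ABCC2. It also limits SLC47A2 among the pathway genes named.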
